A study of Oreochromis mossambicus with 12 samples.

Results

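Mitochondrial ribosomal protein genes were examined in cultured head-kidney leukocytes of tilapia (Oreochromis mossambicus). In bony fish this organ makes blood cells, much as bone marrow does in mammals. Members were all symbols that begin with mrpl or mrps followed by a digit, with the transcripts of a symbol summed and a minimum of 1 FPKM for the mean of the 12 libraries. FPKM count fragments relative to transcript length and library size. The rule found 73 genes, 45 named mrpl and 28 named mrps, among 12423 genes that passed the same filter and 28921 symbols in the table. All 73 symbols that matched the name pattern also passed the filter, so none was lost to it.

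There were 4 groups of 3 libraries. Co-treated cells received heat-killed Streptococcus agalactiae, at 1 bacterium per cell, together with 1000 μM sodium nitrite. The other groups received the bacteria alone, nitrite alone, or PBS. Collection was at 12 h in every group, and all cells had been kept overnight beforehand on collagen in medium with tilapia serum and antibiotics. The bacteria were dead, so these are responses to bacterial material and not to an infection, and nothing in the labels ties a library to a fish or a culture. P-values therefore describe only how far these libraries spread, and that spread may be technical. Because the samples are bulk RNA, fewer cells of a type and less RNA per cell cannot be told apart.

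The mitochondrial ribosome, or mitoribosome, translates the few proteins that are encoded by mitochondrial DNA, nearly all of them membrane subunits of the respiratory chain and ATP synthase. Its ribosomal RNAs come from mitochondrial DNA, whereas every one of its proteins is encoded in the nucleus, made in the cytosol and imported. Some of these proteins have counterparts in bacterial ribosomes and others are found only in mitochondria. The names do not always give the subunit: in mammalian structures the products of mrps30 and mrps18a sit in the large subunit, and mrps36 encodes a small component of the 2-oxoglutarate dehydrogenase complex of the citric acid cycle. With these reassigned the members comprised 47 large-subunit genes, 25 small-subunit genes and mrps36.

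The members were detected in every group. The summed FPKM of all 73 members was 398, 659 and 713 in co-treated libraries (replicates 1, 2 and 3), 386, 610 and 698 with bacteria, 647, 852 and 1298 with nitrite, and 625, 800 and 1194 with PBS. They made up 0.0813% to 0.139% of the FPKM of a library with bacteria alone and 0.0844% to 0.144% with co-treatment, against 0.133% to 0.258% with nitrite and 0.148% to 0.243% with PBS. The 3 highest members over the 12 libraries were mrpl33 (mean 28.7 FPKM), mrpl16 (21.3) and mrpl54 (20.3). Lowest were mrpl39 (4.48), mrps9 (4.22) and mrpl58 (1.27), the last encoding a peptidyl-tRNA hydrolase that releases stalled chains and the only member with a mean under 4 FPKM. mrpl58 is also the member nearest to the filter, and no symbol with this name pattern lay outside it.

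Within every group the level of the family differed with the replicate number. The library numbered 3 held the highest value of its group for 54 of 73 members with co-treatment, 59 with bacteria, 70 with nitrite and 61 with PBS, and the library numbered 1 held the lowest for 72, 70, 66 and 52 members in the same order of groups. These counts were not made over all genes, so they do not show a trait particular to the family. In every group the library numbered 1 also had the smallest FPKM sum. Across the 12423 genes, same-numbered libraries of different groups shifted in common around their group means (18 pairs, with r across genes from 0.42 to 0.92). The leading fits used the groups only and did not pair these libraries. Fits with the replicate number as a block, and values within pairs of the same number, are given beside them.

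**Figure D1:**
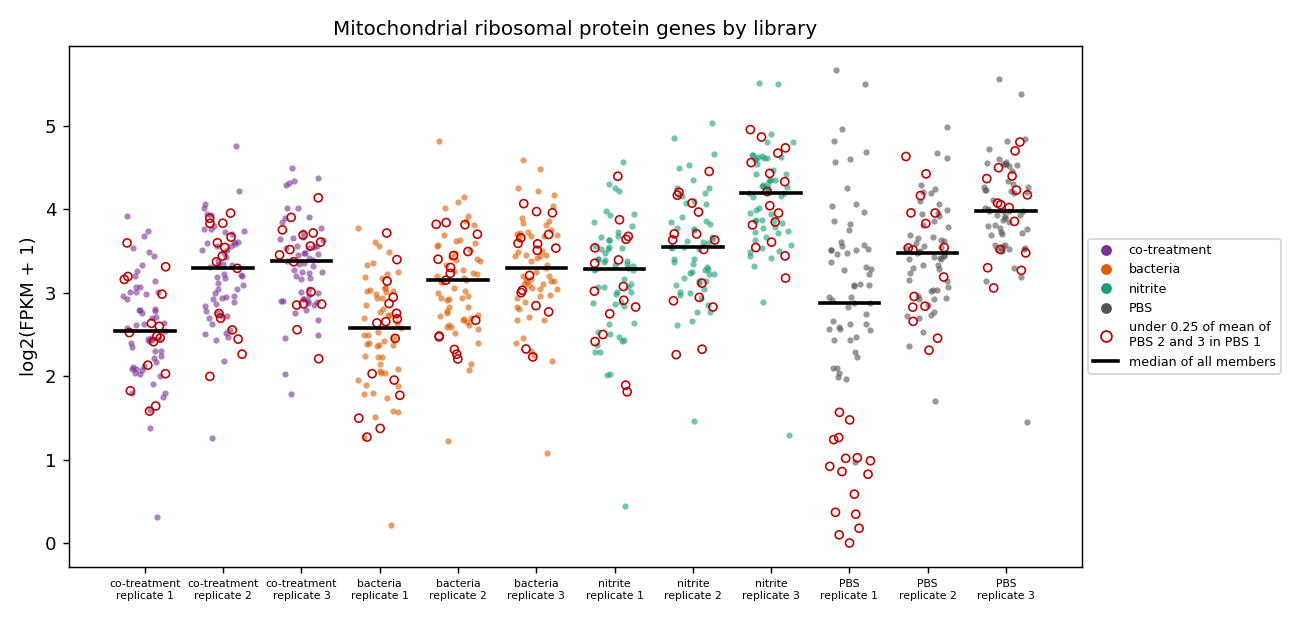
Level of each of the 73 members in the 12 libraries, as log2(FPKM + 1), with the median of all members as a black bar; colours mark the groups. Open red circles are the 16 members that were under 0.25 of the mean of PBS replicates 2 and 3 in PBS replicate 1, where they fall to the bottom of the distribution.

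PBS replicate 1 stood apart, and it did so member by member. Relative to the mean of the other PBS libraries, 16 of 73 members (21.9%) were under 0.25 times in PBS replicate 1, and 14 (19.2%) were above 1. Over all genes tested 9.51% were under 0.25 and 49.4% above 1, while among 67 cytosolic ribosomal protein genes 67.2% were under 0.25. The nearest members on either side of that limit were mrpl52 at 0.228 and mrpl16 at 0.270. The gene mrps12, whose product lines the decoding centre of the small subunit, was listed at 0 FPKM in PBS replicate 1, against 14.5 and 15.2 in the other PBS libraries, and was the only member listed at 0 anywhere. The large-subunit gene mrpl39 was at 0.07, 6.09 and 8.63 FPKM in PBS replicates 1, 2 and 3, and mrpl20 was at 0.0174 times the mean of PBS replicates 2 and 3. By contrast mrpl54, which encodes a mitochondria-specific large-subunit protein, was at 44.4 FPKM in PBS replicate 1 and at 23.5 and 25.3 in replicates 2 and 3. Across the 73 members the log2 levels of PBS replicate 1 had r = 0.41 and 0.42 with those of replicates 2 and 3, whereas PBS replicates 2 and 3 had r = 0.86 with each other. The libraries numbered 1 of the other groups did not show this: their r with the other libraries of their group was 0.83 to 0.90. These coefficients are descriptions over genes that share their libraries.

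PBS replicate 1 also had the smallest FPKM sum (422129, against 471752 to 503740 in the other 11 libraries) and, from the smallest values of 335 sparsely detected genes, the lowest relative depth, with the deepest library at about 1.14 times its depth. No pair of libraries held identical values. What set PBS replicate 1 apart was not tested. Most changes against PBS are therefore also given without the libraries numbered 1.

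**Figure D2:**
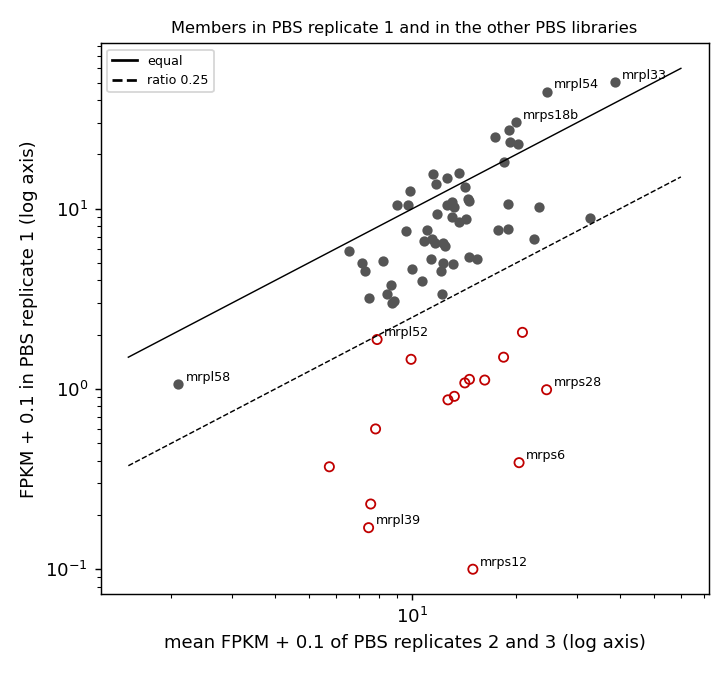
FPKM + 0.1 of each member in PBS replicate 1 (vertical, log axis) against the mean of PBS replicates 2 and 3 (horizontal, log axis). The 16 members drawn as open circles lie at or under the dashed line at a ratio of 0.25, and mrps12, listed at 0, is the lowest; mrpl33 and mrpl54 lie above the line of equal values.

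Some members were called lower with heat-killed bacteria. Of the 73 members 7 fell and 0 rose in bacteria against PBS: mrpl19, mrpl23, mrpl30, mrpl33, mrpl54, mrps18a and mrps21. That is 9.59% of the members, against 26.3% of all genes tested that were called lower. The count lies below the background in this fit, which did not pair libraries by number. Of all genes 10.7% were called higher. The 7 were 6 of 47 large-subunit members and 1 of 25 small-subunit members (mrps21). Without the libraries numbered 1 these counts were 6 and 4. With the replicate number as a block 35 members fell (47.9%, against 38.6% of all genes) and 0 rose, a share above the background. Without the libraries numbered 1, 10 fell (13.7%, against 23.2% of all genes), and 35 did with the block as well (against 38.4%). The count was 13 without PBS replicate 1 alone (17.8%, against 28.5% of all genes), 2 without bacteria replicate 1 (2.74%, against 16.9%), and 0 without the libraries numbered 2 (against 4.74%). Calls came from limma's moderated test on log2(FPKM + 1), with Benjamini-Hochberg adjustment over the 12423 genes and a threshold of 0.05; log2 changes on this scale understate the change of low genes.

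The family's median log2 change with bacteria was -0.54, beside -0.29 over all genes tested, and 59 of 73 members had negative changes (80.8%, against 65.5% of all genes). Without the libraries numbered 1 the median was also -0.54, and 70 members were negative (95.9%, against 67.8% of all genes). Single libraries moved the median more: it was -0.74 without PBS replicate 1, -0.23 without bacteria replicate 1 and -0.21 without PBS replicate 3. Leaving out a single library makes the replicate numbers unequal between the groups, and the family's level differed with that number. Without the libraries numbered 2 or 3 of every group the median was -0.56 and -0.39. Large-subunit and small-subunit members had the same median, -0.54 each. Dividing each library by a median ratio to the mean library moved the median of all genes by 0.30, to 0.01, and the median of the members to -0.22. The median of the members minus that of all genes was -0.25 as deposited and -0.23 after that scaling. With it 3 members fell (4.11%, against 14% of all genes), and the share of higher among all called genes was 54.5%, against 29% as deposited. With that scaling and the block 10 members fell (13.7%, against 23.8%) and 2 rose (2.74%, against 23.5%), so the members' share was above the background with the block alone and below it with both.

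mrpl23 encodes a protein at the exit of the tunnel through which the new chain leaves the ribosome. It was at 3.73, 9.05 and 9.86 FPKM with bacteria, against 23.4, 15.7 and 22.4 with PBS. The groups did not overlap, and the bacteria library numbered 1 was the lowest of all. Its log2 change was -1.40 ± 0.37 (SE; limma adjusted p = 0.0125), and without the libraries numbered 1 it was -0.92 (adjusted p = 0.0283).

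mrpl30, a large-subunit gene with a bacterial counterpart, was at 10.2, 10.4 and 12.5 FPKM with bacteria and at 27.1, 16.1 and 21.9 with PBS. Every bacteria library lay below every PBS library. The log2 change was -0.89 ± 0.21 (SE; limma adjusted p = 0.00823), and -0.68 without the libraries numbered 1 (adjusted p = 0.0395).

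mrps18a, one of a trio of genes related to the bacterial small-subunit protein S18, was at 6.65, 11.4 and 12.2 FPKM with bacteria, against 22.6, 17.9 and 22.3 with PBS, again without overlap (log2 -1.02 ± 0.28, limma adjusted p = 0.0153). These 3 genes, mrpl23, mrpl30 and mrps18a, were called with and without the libraries numbered 1 and after median-ratio scaling.

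The calls of the other 4 genes were lost without PBS replicate 1 (limma adjusted p from 0.0552 to 0.0883 without that library alone). mrpl54 was at 8.10, 13.1 and 17.6 FPKM with bacteria, against 44.4, 23.5 and 25.3 with PBS (log2 -1.21 ± 0.38, limma adjusted p = 0.0299), and its adjusted p was 0.107 without the libraries numbered 1. mrpl33, the highest member, was at 11.2, 27.2 and 21.3 FPKM with bacteria, against 50.03, 30.57 and 46.39 with PBS (log2 -1.104 ± 0.36, limma adjusted p = 0.0324, and 0.137 without those libraries). mrpl19, whose bacterial counterpart lies at the interface of the subunits, changed by -0.83 ± 0.25 and mrps21 by -0.85 ± 0.26 on the log2 scale (limma adjusted p = 0.0225 and 0.0249, and 0.0741 and 0.114 without those libraries). Each of the 4 kept a negative change without the libraries numbered 1, from -0.51 to -0.65. Their groups did not overlap; of all members 19 (26%) had every bacteria library below every PBS library, as did 34.6% of all genes. mrpl14, a large-subunit gene with a bacterial counterpart, had the third most negative change (-1.16 ± 0.48) and did not pass limma's test (adjusted p = 0.0821, 0.0212 with the block, and 0.216 at a log2 change of -0.61 without the libraries numbered 1).

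**Figure D3:**
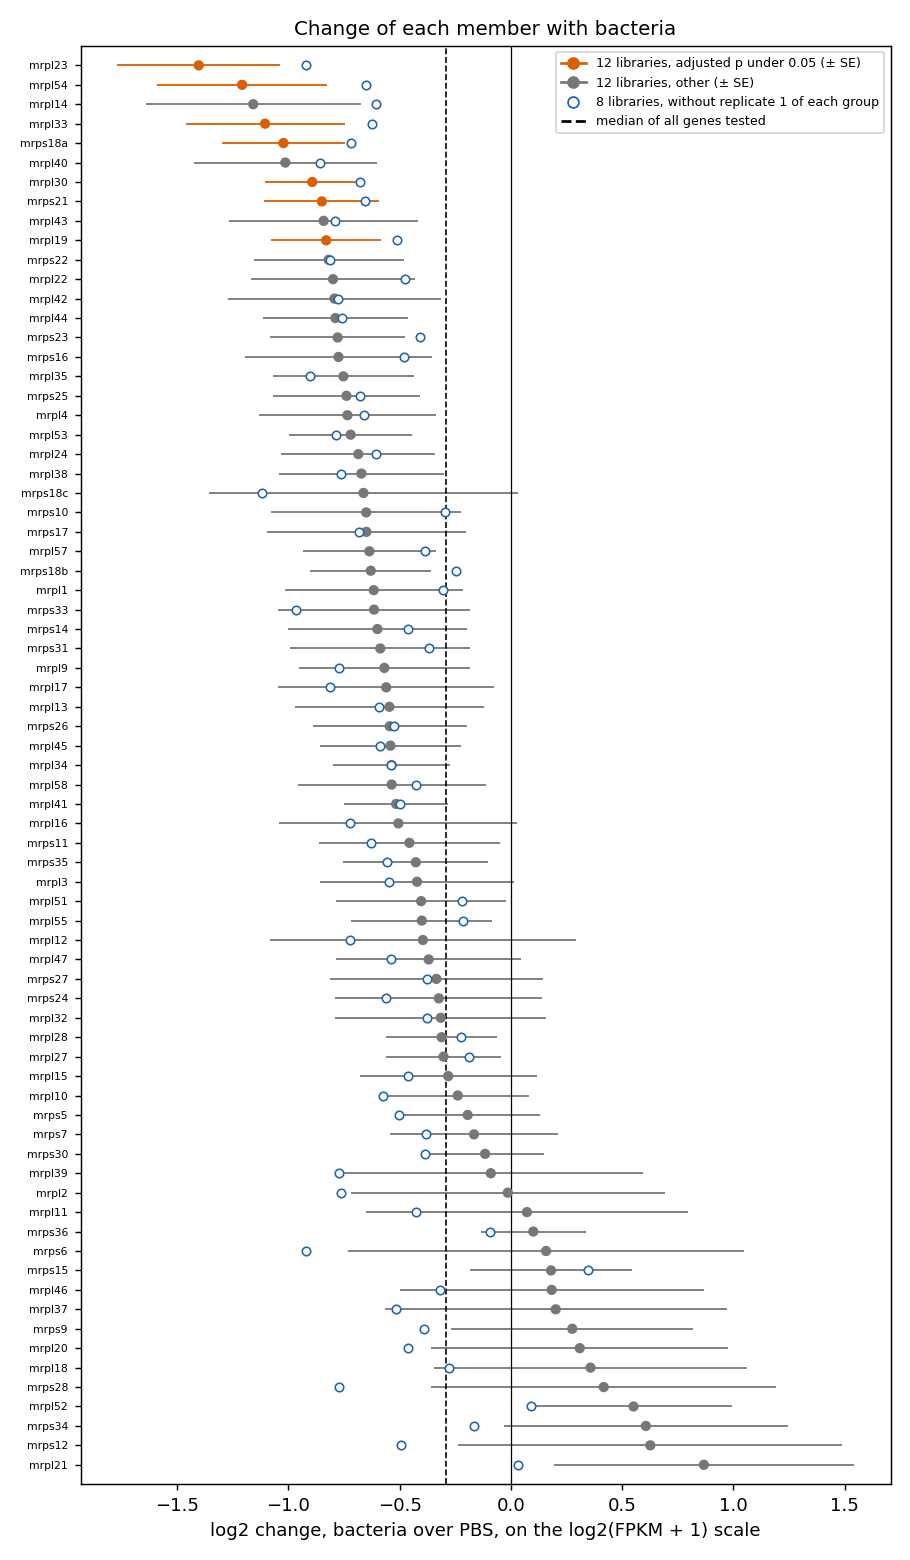
Log2 change of each of the 73 members, bacteria over PBS, on the log2(FPKM + 1) scale, with its standard error; orange marks adjusted p under 0.05 and open circles the change without the libraries numbered 1. The 7 called members lie between -1.40 and -0.83, and 11 of the 14 members with positive changes have negative values in the open circles.

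Most members were lower with bacteria within pairs of libraries of the same number. In the libraries numbered 2, 64 of 73 members were lower with bacteria than with PBS, and in those numbered 3 all 73 were. In the libraries numbered 1 the count was 49. Such counts of single pairs were not made over all genes. The median log2 difference of the members was -0.45, -0.34 and -0.76 in pairs 1, 2 and 3. Over all genes it was -0.34, -0.26 and -0.31. Bacteria libraries held 0.618, 0.762 and 0.585 times the summed member FPKM of the PBS library with the same number (1, 2 and 3). For 43 members (58.9%) all 3 differences were negative, beside 47.8% of all genes, and for 64 (87.7%) those of numbers 2 and 3 were, beside 59.5%.

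Of the 14 members with a positive change with bacteria, 12 were among the 16 that were very low in PBS replicate 1. The 16 members' median log2 change with bacteria was 0.24, and that of the other 57 was -0.60; without the libraries numbered 1 the medians were -0.48 and -0.56. These 16 were picked by their level in PBS replicate 1, so the first pair of values follows from the choice. mrps12 was at 6.31, 9.56 and 11 FPKM with bacteria, against 0, 14.5 and 15.2 with PBS. Its log2 change of 0.63 ± 0.86 became -0.49 without the libraries numbered 1, and neither passed limma's test (adjusted p = 0.604 and 0.0808). The most positive member, mrpl21, changed by 0.87 ± 0.67 (limma adjusted p = 0.342), and by 0.03 without those libraries. mrps34 (0.61 ± 0.64) and mrpl52 (0.55 ± 0.44) did not pass limma's test either (adjusted p = 0.489 and 0.359), and without those libraries they changed by -0.17 and 0.09 (adjusted p = 0.652 and 0.825).

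The S18-related trio differed in how firmly it could be read. mrps18b was at 10.8, 16.0 and 16.9 FPKM with bacteria and at 30.1, 17.3 and 22.4 with PBS (log2 -0.63 ± 0.27, limma adjusted p = 0.0913, and 0.0542 with the block). Its change was -0.24 without the libraries numbered 1 (adjusted p = 0.299). mrps18c was at 1.41, 5.36 and 7 FPKM with bacteria, against 1.03, 13.2 and 15.8 with PBS; the libraries numbered 1 were both low. Its log2 change was -0.66 ± 0.69 (limma adjusted p = 0.489). Without the libraries numbered 1 it was -1.12 (adjusted p = 0.0101), the most negative of the 73 members in that fit.

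The members mrpl4, mrpl24, mrpl45 and mrpl44 had called changes with the block and not without it over 12 libraries. mrpl4, whose product lines the exit tunnel, was at 5.2, 10.8 and 11.8 FPKM with bacteria, against 10.4, 14.9 and 22.7 with PBS. Each bacteria library was below the PBS library of its number while the groups as a whole overlapped. Its log2 change of -0.73 ± 0.40 did not pass limma's test (adjusted p = 0.173) and did with the block (0.00229), and without the libraries numbered 1 it was -0.66 (0.0489). mrpl24, near the tunnel exit, was -0.69 ± 0.35 and mrpl45, which holds the ribosome at the inner membrane in mammals, was -0.54 ± 0.32. Neither passed limma's test (adjusted p = 0.145 and 0.202), and both did with the block (0.00708 and 0.0202). Their changes were -0.61 and -0.59 without the libraries numbered 1 (adjusted p = 0.123 and 0.188). mrpl44, which has an RNase III fold, had the smallest adjusted p of all members with the block (0.000987); it was at 2.00, 3.22 and 4.28 FPKM with bacteria, against 4.40, 5.47 and 8.85 with PBS (log2 -0.79 ± 0.33, limma adjusted p = 0.0813 without the block). Its change without the libraries numbered 1 was -0.76 (adjusted p = 0.0975).

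Genes of the stalk, where translation factors dock, did not pass with or without the block over 12 libraries. mrpl12, whose human product also binds the mitochondrial RNA polymerase, was at 1.82, 4.58 and 5.82 FPKM with bacteria, against 1.36, 6.15 and 13.5 with PBS (log2 -0.39 ± 0.69, limma adjusted p = 0.689, and 0.209 with the block). The pairs numbered 2 and 3 were lower and the pair numbered 1 was higher. mrpl10 (-0.24 ± 0.32) and mrpl11 (0.07 ± 0.72) had limma adjusted p-values of 0.595 and 0.950. With the block and without the libraries numbered 1, mrpl10 and mrpl12 passed (adjusted p = 0.0264 and 0.0394) and mrpl11 did not (0.0969).

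Of the members close to the peptidyl transferase centre, mrpl3 changed by log2 -0.42 (SE 0.44 without the block and 0.15 with it). It passed limma's test with the block (adjusted p = 0.0351). With the block mrpl2 (-0.01 ± 0.71), mrpl16 (-0.51 ± 0.53) and mrpl27 (-0.30 ± 0.26) did not pass (adjusted p = 0.983, 0.0684 and 0.108). The errors in these brackets are without the block, and with it they were 0.45, 0.21 and 0.15. mrpl2 was one of the 16 members very low in PBS replicate 1, with 1.40 FPKM there against 16.9 and 19.6 in replicates 2 and 3. When the libraries numbered 1 were left out, mrpl2 changed by -0.77, mrpl16 by -0.72 and mrpl3 by -0.55, and these passed with the block (adjusted p = 0.0167, 0.00509 and 0.0264) but not without it (0.0731, 0.189 and 0.154). mrpl27 then changed by -0.19 and passed with neither (0.268 with the block). In the small subunit, the mitochondria-specific gene mrps22 was at 3.23, 5.75 and 5.38 FPKM with bacteria, against 6.54, 8.72 and 12.6 with PBS. These groups did not overlap (log2 -0.82 ± 0.34, limma adjusted p = 0.0789, and 0.00619 with the block). The change was -0.81 without the libraries numbered 1 (adjusted p = 0.103, and 0.0385 with the block). mrps14 was -0.60 ± 0.40 and passed with the block only (adjusted p = 0.0414); mrps7 (-0.17 ± 0.38), mrps11 (-0.46 ± 0.41) and the pentatricopeptide repeat gene mrps27 (-0.33 ± 0.48) passed in neither of these fits (adjusted p = 0.550, 0.0898 and 0.370 with the block). When the libraries numbered 1 were left out, mrps11 changed by -0.63 and passed with the block (adjusted p = 0.0175), while mrps14 (-0.46), mrps7 (-0.38) and mrps27 (-0.38) did not (0.131, 0.0528 and 0.453).

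Among members linked to cell death in human cells, mrpl41, described there as a BCL2 partner, was at 7.05, 7.87 and 9.85 FPKM with bacteria, against 10.8, 11.6 and 14.2 with PBS, without overlap (log2 -0.52 ± 0.23, limma adjusted p = 0.108, and 0.0123 with the block), and its change without the libraries numbered 1 was -0.50 (adjusted p = 0.139). mrps30, also known as programmed cell death protein 9, was at 8.52, 8.20 and 9.96 FPKM with bacteria and at 6.09, 9.91 and 14.8 with PBS, groups that overlapped fully (log2 -0.12 ± 0.27, limma adjusted p = 0.767, and -0.39 with adjusted p = 0.244 without the libraries numbered 1). mrps36, the dehydrogenase component, varied little: it lay between 6.32 and 13.7 FPKM in all 12 libraries and changed by 0.10 ± 0.24 (limma adjusted p = 0.772, and -0.09 with adjusted p = 0.678 without the libraries numbered 1). mrps15 was the most positive member without the libraries numbered 1 (0.35) and did not pass limma's test with or without them (adjusted p = 0.731 and 0.520).

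**Figure D4:**
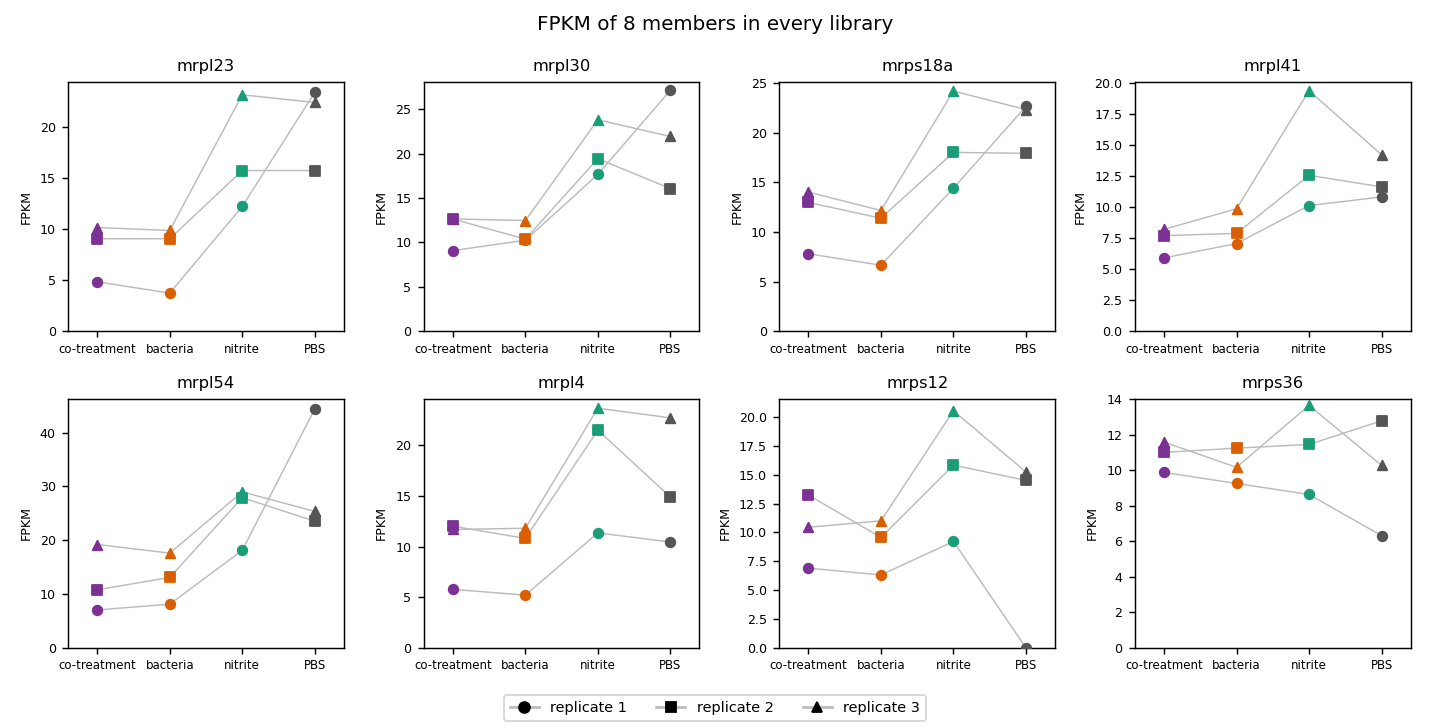
FPKM of 8 members in each of the 12 libraries, with groups from left to right as co-treatment, bacteria, nitrite and PBS, and grey lines joining libraries with the same replicate number. In mrpl23, mrpl30, mrps18a, mrpl41 and mrpl54 every library with bacteria lies below every PBS library; mrps12 was listed at 0 in PBS replicate 1, and mrps36 lay between 6.32 and 13.7.

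The effect of bacteria in the presence of nitrite was read from co-treatment against nitrite, where no PBS library entered the log2 changes. The spread behind the tests was still estimated from all 4 groups. Here 4 members fell and 0 rose (5.48%, against 23.3% of all genes called lower): mrpl30, mrpl41, mrpl53 and mrps21. With the block 34 fell (46.6%, against 36.2% of all genes), and without the libraries numbered 1 it was 11 (15.1%, against 23%), or 39 with the block as well (against 38.1%). With the block and median-ratio scaling 8 fell (11%, against 22.1%) and 1 rose (1.37%, against 22.9%). The median log2 change was -0.62, beside -0.32 over all genes, and 70 of 73 members were negative (95.9%, against 67.4% of all genes). After median-ratio scaling the medians were -0.32 and -0.04, with 0 members called by limma (against 13.2% of all genes lower) and 5 at an unadjusted p under 0.05; higher genes were 55.1% of all calls, against 31.2% as deposited. In pairs of the same number, 65, 63 and 71 members were lower with co-treatment than with nitrite (numbers 1, 2 and 3), and 59 (80.8%) were lower in all 3 pairs, beside 54.1% of all genes. The counts of single pairs were not made over all genes.

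mrpl41 was at 5.9, 7.69 and 8.19 FPKM with co-treatment, against 10.1, 12.5 and 19.4 with nitrite. The groups did not overlap, and nitrite replicate 3 was the highest library (log2 -0.82 ± 0.23, limma adjusted p = 0.0199). mrpl53, a mitochondria-specific large-subunit gene, was at 5.14, 10.2 and 9.96 FPKM with co-treatment, against 10.5, 17.1 and 20.5 with nitrite (log2 -0.86 ± 0.28, limma adjusted p = 0.0342). mrpl30 changed by -0.78 ± 0.21 and mrps21 by -0.82 ± 0.26 (limma adjusted p = 0.0170 and 0.0312). mrpl23, at 4.83, 9.05 and 10.2 FPKM with co-treatment and 12.2, 15.7 and 23.1 with nitrite, changed by -1.01 ± 0.37 and just missed the threshold (limma adjusted p = 0.0537, and 0.0115 with the block). mrps18c was at 4.49, 4.44 and 6.29 FPKM with co-treatment, against 11.5, 12.0 and 13.4 with nitrite. These libraries did not overlap, and it had the most negative change of the family (-1.14 ± 0.69). The change did not pass limma's test (adjusted p = 0.226, and 0.0880 with the block) but did without the libraries numbered 1 (0.0103). No PBS library entered this change, but its SE drew on the spread within PBS, where mrps18c was at 1.03, 13.2 and 15.8 FPKM. Of all members 22 (30.1%) had every co-treated library below every nitrite library, as did 38.9% of all genes. Without the block, every count that left out a library or a replicate number stayed below the share of all genes. The count of 4 became 0 without the libraries numbered 2 or 3 (against 3.8% and 15.1% of all genes). It was 0 without nitrite replicate 3 (21.6%), 0 without co-treatment replicate 1 (15.1%) and 2 without nitrite replicate 2 (15.3%). It was 11 without PBS replicate 1 (33%), which enters this comparison only through the shared estimate of spread.

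Co-treatment against PBS shares its PBS libraries with the first comparison. In limma's test 10 members fell and 0 rose (13.7%, against 27.7% of all genes called lower), and 27 fell with the block (37%, against 38.7%). The 10 were mrpl19, mrpl23, mrpl30, mrpl33, mrpl34, mrpl41, mrpl54, mrps18a, mrps21 and mrps23. Without the libraries numbered 1, 6 fell (8.22%, against 25%), of which mrpl23 alone was among the 10, and 31 did with the block as well (against 38.4%). The count of 10 became 1, 6 and 4 without co-treatment replicate 1, co-treatment replicate 2 and PBS replicate 3 (against 20%, 22.4% and 26.6% of all genes). It became 0 and 3 without the libraries numbered 2 and 3 (against 6.26% and 20%). The median log2 change was -0.41, beside -0.29 over all genes, and -0.46 without the libraries numbered 1. It was -0.71 without PBS replicate 1, -0.18 without co-treatment replicate 1 and -0.0821 without PBS replicate 3. Such single omissions make the replicate numbers unequal between the groups. Without the libraries numbered 2 or 3 of every group the median was -0.51 and -0.23. After median-ratio scaling it was -0.09, with 2 members called (2.74%, against 15.7% of all genes lower) and higher genes at 53.1% of all calls, against 29.1% as deposited. mrpl54 had the most negative change (-1.31 ± 0.38, limma adjusted p = 0.0195), with 7.03, 10.8 and 19.2 FPKM in co-treated libraries, against 44.4, 23.5 and 25.3 with PBS. That change was -0.72 without the libraries numbered 1 (adjusted p = 0.0805). mrpl23 followed (-1.29 ± 0.37, limma adjusted p = 0.0171), and was at -0.90 without those libraries (0.0275). Co-treated libraries held 0.637, 0.823 and 0.597 times the summed member FPKM of the PBS library with the same number.

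No member was called with nitrite alone. The family's median was positive in every pair of libraries, but its sign changed when some single libraries were left out. Limma called 0 of 73 members, with and without the block, as it called 0 of all 12423 genes (0%); at an unadjusted p under 0.05 there were 0 members, and 3 with the block. The median log2 change was 0.15, beside -0.03 over all genes, and 49 members were positive. It moved with PBS replicate 1: without that library alone the median was -0.14, without PBS replicate 3 it was 0.39 and without nitrite replicate 3 it was -0.14. Leaving out a single library leaves the replicate numbers unequal between the groups. Without the libraries numbered 1 of every group it was 0.11, with 52 members positive. Without those numbered 2 or 3 it was 0.17 and 0.13. Within pairs 1, 2 and 3 the median was 0.18, 0.08 and 0.11, beside -0.12, 0.01 and -0.01 over all genes. Nitrite libraries held 1.04, 1.06 and 1.09 times the summed member FPKM of the PBS libraries with the same number. Of the members, 21 were higher in all 3 pairs (28.8%, against 13.2% of all genes) and 2 were lower in all 3 (2.74%, against 17.5%). For the 16 members very low in PBS replicate 1 the median was 0.81, and 0.13 without the libraries numbered 1. The other 57 had medians of 0.07 and 0.10. These 16 were picked by their level in PBS replicate 1, so the value of 0.81 follows from the choice. A test that calls no gene does not show that nitrite left these genes as they were.

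Adding nitrite to the bacteria also gave no call. Against bacteria alone, co-treatment changed 0 of 73 members in limma's test (0 with the block; 0 and 1 at an unadjusted p under 0.05), where 1 of all genes was called lower (0.00805%), and with the block 3 were called higher (0.0241%). The median log2 change was 0.07, beside -0.01 over all genes, and changes ran from -0.24 to 0.37. Summed member FPKM was 1.03, 1.08 and 1.02 times that of the bacteria library with the same number. The interaction, which asks whether nitrite acted differently with and without bacteria, was called for 0 members (0 at an unadjusted p under 0.05) and for 0.00805% of all genes, with a median of -0.09. Without PBS replicate 3 that median was -0.38, and without nitrite replicate 3 it was 0.20. When number 1, 2 or 3 was left out of every group it was -0.05, -0.14 and -0.10. The median of co-treatment against bacteria was -0.16 without bacteria replicate 1 and 0.32 without co-treatment replicate 1. Within pairs 1, 2 and 3 it was 0.08, 0.10 and 0.04.

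Other genes of mitochondrial translation, taken from lists matched by symbol, had negative medians with bacteria, which after median-ratio scaling ran from -0.29 for assembly genes to -0.0004 for translation factors. The counts of each list stand beside 26.3% of all genes called lower and 10.7% called higher. With the block these shares were 38.6% and 14.8%. Mitoribosome proteins under other names had 5 of 6 symbols in the table, among them dap3 (log2 -0.79 ± 0.35) and ptcd3 (-0.45 ± 0.52). None passed limma's test, dap3 and chchd1 fell with the block (adjusted p = 0.00228 and 0.00790), and the list's median was -0.45. Of 16 tested genes for mitoribosome assembly and rRNA modification 2 fell and 0 rose (median -0.52): the pseudouridine synthase gene trub2 (-0.80 ± 0.27) and malsu1 (-0.89 ± 0.31), an assembly factor of the large subunit. With the block 9 fell and 1 rose. Of 13 translation factors only mrrf, which encodes the ribosome recycling factor, fell (-0.92 ± 0.18, limma adjusted p = 0.00292), at a median of -0.27; 5 fell with the block. Of 18 genes for mitochondrial tRNA charging 4 fell (median -0.38), with rars2 (-1.05 ± 0.22) and nars2 (-1.36 ± 0.32), the arginine and asparagine tRNA synthetases, having the smallest adjusted p (0.00434 and 0.00759). With the block 7 of them fell and 1 rose. With the libraries numbered 1 left out, mrrf, rars2 and nars2 were still called (-0.82, -0.90 and -0.88, adjusted p = 0.00704, 0.0118 and 0.0168), and trub2 and malsu1 were not (-0.72 and -0.54, adjusted p = 0.0637 and 0.140). The medians without those libraries were -0.63, -0.43, -0.47 and -0.51 for other-named proteins, assembly, translation factors and tRNA charging.

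Of 11 genes that keep and transcribe mitochondrial DNA, 5 fell and 0 rose in bacteria against PBS, where 26.3% of all genes fell. The list's median was -0.67. It was -0.75 without the libraries numbered 1 (6 falling, against 23.2% of all genes). After median-ratio scaling it was -0.48 (2 falling, against 14% of all genes). polrmt, the mitochondrial RNA polymerase, changed by -0.87 ± 0.20 (limma adjusted p = 0.00638) and tfam, which packages mitochondrial DNA and starts its transcription, by -0.94 ± 0.22 (adjusted p = 0.00692), with means of 7.39 FPKM with bacteria and 15.02 with PBS. Both were called without the libraries numbered 1 (-0.87 and -0.90, adjusted p = 0.0118 and 0.0131), as well as with median-ratio scaling (0.0176 and 0.0238). Whether this list differs from the members was not tested.

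Cytosolic ribosomal proteins and oxidative phosphorylation subunits had other medians with than without the libraries numbered 1. With bacteria the median of 67 cytosolic ribosomal protein genes was 0.16, and -0.58 without the libraries numbered 1, with 5 and 34 genes falling. For 46 oxidative phosphorylation genes the medians were -0.25 and -0.52, with 7 and 17 falling, while the members were at -0.54 in both. Of all genes 26.3% fell, and 23.2% did without the libraries numbered 1. After median-ratio scaling of the 12 libraries the oxidative phosphorylation median was 0.10 and the cytosolic one 0.52. In co-treatment against nitrite, which uses no PBS library, the medians lay close together at -0.59, -0.60 and -0.62 for cytosolic ribosomal proteins, oxidative phosphorylation and the members.

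**Figure D5:**
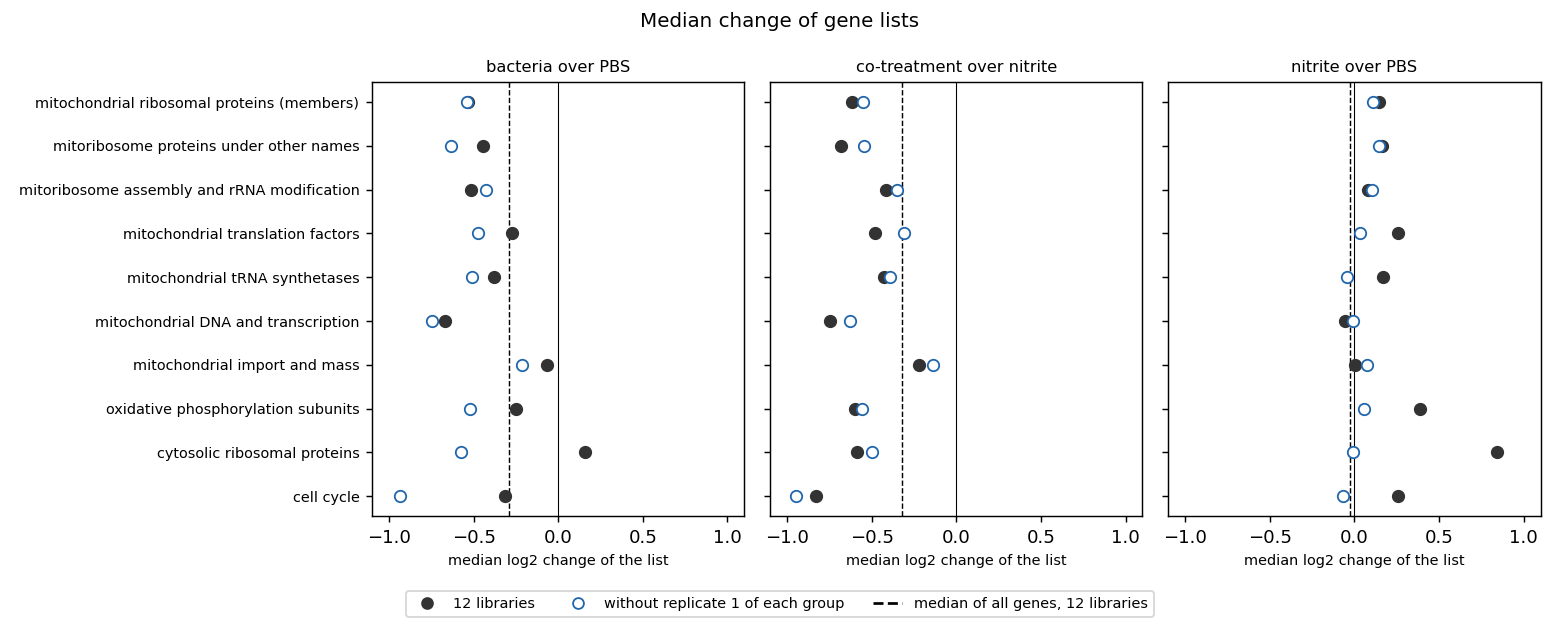
Median log2 change of the members and of 9 other gene lists in 3 comparisons, with 12 libraries (filled) and without the libraries numbered 1 (open); the dashed line is the median of all genes tested. With bacteria over PBS the members keep a median of -0.54 in both, while cytosolic ribosomal proteins lie at 0.16 and -0.58.

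Markers of cell types and of cell division were summed in each library. Calls among them stand beside 26.3% of all genes lower and 10.7% higher. Without the libraries numbered 1 these shares were 23.2% and 10%. Of 12 leukocyte markers 7 were in the table and passed the filter, with a summed level of 1646 to 1749 FPKM with bacteria and 1371 to 1830 with PBS. The macrophage receptor gene csf1r fell (log2 -3.79 ± 0.64, limma adjusted p = 0.00133), to a mean of 2.37 FPKM with bacteria, against 49.6 with PBS, and by -3.52 without the libraries numbered 1 (adjusted p = 0.0245). lcp1 averaged 1023 FPKM with bacteria and 685 with PBS, and the myeloid factor spi1 511 with bacteria and 680 with PBS. Both genes made up most of the leukocyte sum and their means went opposite ways, so that sum cannot stand for leukocyte content. The other leukocyte markers are not given singly here, so the genes named do not describe the list. Of 12 erythroid markers 1 was in the table, and its level was at most 0.55 FPKM in any library. The summed FPKM of 5 thrombocyte markers was 30.9 to 77.2 with bacteria, against 92.9 to 238.6 with PBS; 3 of the 4 tested fell, and 0 without the libraries numbered 1. That of 8 fibroblast markers was 12.4 to 22.1 with bacteria, against 46.9 to 74.3 with PBS, with both tested markers falling. For 7 endothelial markers the sum was 39.0 to 80.5 with bacteria, against 5.39 to 25.3 with PBS. Of 3 such markers 1 rose and 2 fell, so this sum cannot stand for endothelial content. For 7 kidney tubule markers the sum was 0.37 to 0.78 with bacteria, against 1.86 to 4.79 with PBS. For 4 interrenal markers it was 13.9 to 15.6 with bacteria, against 14.4 to 21.3 with PBS. The sum of 15 cell cycle genes was 236 to 368 with bacteria, against 227 to 834 with PBS. Their median log2 change was -0.31, -0.93 without the libraries numbered 1 and 0.02 after median-ratio scaling, and 1 fell (top2a, -0.85 ± 0.26). The ranges of the groups overlapped for leukocyte, interrenal and cell cycle genes, and did not for thrombocyte, fibroblast, endothelial and kidney tubule markers. The part of these cells and of cell division in the members' change was not tested.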

How the data were processed

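RNA sequencing of 12 tilapia leukocyte libraries (4 groups of 3) was analysed from 1 table of FPKM values that the authors deposited for 58070 transcripts, given to 2 decimals, per the file headers. The submitters' processing notes name Trimmomatic 0.30, HISAT2 2.0.1 and HTSeq 0.6.1. Genome build, annotation and FPKM program are not given in these sources. Of 28921 symbols 18784 are LOC identifiers, which the name rule could not match, and 14 of the 73 members summed several transcripts. FPKM hold no counts, so absolute depth is unknown and no counting interval is given.

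All 4 groups were fitted together in limma 3.58.1 (R 4.3.3, empirical Bayes with a trend, 8 residual degrees of freedom) on log2(FPKM + 1) for genes whose mean reached 1 FPKM, after a check of the fit on simulated data. The simulated libraries were drawn independently, with no shift shared by replicate number and no library set apart. The check therefore does not cover these features of the data. Benjamini-Hochberg adjustment ran over all genes, with a threshold of 0.05. Errors are SE of the unblocked fit, also beside adjusted p-values with the block, unless an SE with the block is named. Replicate numbers come from the sample titles. By deviations from group means, and among libraries of other groups only, 12 of 12 libraries were closest to one of their own number. By levels over all libraries, nitrite replicate 1 was closest to PBS replicate 2 (r = 0.96). Results are from the unblocked fit unless the block is named.

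Members and lists were chosen with earlier results of these data known. Named members were a panel of roles, the smallest adjusted p-values, the extremes of level and of change. mrpl34, mrps23, mrps36 and mrps26 were named outside this rule, after their values were seen, and so were the members listed by name in the counts of calls. Alternatives covered pseudocounts, filters, scalings, the highest transcript per gene, the block and leaving out libraries. No sequences were used here.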

Additional observations from a re-analysis of the deposited data

Results flagged for a closer look

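A pair of members had nitrite responses of opposite sign with and without bacteria in all 3 pairs of libraries. The difference was not tested beyond the interaction, which called neither. The share of all genes with such a pattern was not counted, so there is no background to read these members against. For mrpl58 the mean log2 change of co-treatment against bacteria was 0.28, and that of nitrite against PBS was -0.31. Pair 3 carried the first of these: the changes were 0.10, 0.04 and 0.70 in pairs 1, 2 and 3, beside -0.53, -0.25 and -0.15 with nitrite against PBS. For mrps26, a small-subunit gene, these changes were -0.12 and 0.07. In pairs 1, 2 and 3 they were small, at -0.13, -0.08 and -0.15, beside 0.06, 0.05 and 0.09. mrpl58 was the lowest member, at 0.24 to 2.45 FPKM with co-treatment and 0.16 to 1.33 with bacteria.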

How the results depend on the processing

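Counts of called members depended on scaling, design and single libraries, and the sign of the median in the 3 comparisons that add bacteria did not. For bacteria against PBS (7 called) the count was 3 after median-ratio scaling, 11 with every library rescaled to the same sum, 35 with the replicate block, 12 with the block and median-ratio scaling (10 lower, 13.7% against 23.8% of all genes, and 2 higher, 2.74% against 23.5%) and 35 with the block and without replicate 1. For co-treatment against PBS (10) it was 4 with no filter on low values, 2 after median-ratio scaling, 4 after quantile normalization, 27 with the block and 31 with the block and without replicate 1. For co-treatment against nitrite (4) it was 2 with no filter, 0 after median-ratio scaling, 1 after quantile normalization, 34 with the block, 9 with the block and median-ratio scaling (8 lower, 11% against 22.1% of all genes, and 1 higher, 1.37% against 22.9%) and 39 with the block and without replicate 1. Medians in these comparisons were -0.22, -0.0908 and -0.32 after median-ratio scaling, with the block or without it, and -0.22, -0.11 and -0.28 after quantile normalization. With the same sum the median was 0.0792 for nitrite against PBS and -0.0096 for the interaction.

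When single libraries or whole replicate numbers were left out, counts ran from 0 to 13 for bacteria against PBS, 0 to 12 for co-treatment against PBS and 0 to 11 for co-treatment against nitrite, each 0 without replicate 2. Calls fell over all genes as well in that setting, to 4.74%, 6.26% and 3.8% lower. Without bacteria replicate 1 the first count was 2, and without PBS replicate 1 it was 13. The second was 1, 6 and 4 without co-treatment replicates 1 and 2 and PBS replicate 3. Medians ran from -0.74 to -0.21, -0.71 to -0.0821 and -0.84 to -0.31 in these comparisons, from -0.14 to 0.39 for nitrite against PBS, -0.16 to 0.32 for co-treatment against bacteria and -0.38 to 0.20 for the interaction. The ends of these ranges all came from leaving out a single library, which makes the replicate numbers unequal between the groups. Without number 1, 2 or 3 of every group the median was 0.11, 0.17 and 0.13 for nitrite against PBS. For co-treatment against bacteria it was 0.07, 0.06 and 0.07. No alternative called a member for nitrite, for co-treatment against bacteria or for the interaction. The causes were not tested. Of all these settings the share of members called lower was above that of all genes in those with the block and the deposited scaling for bacteria against PBS (47.9% against 38.6%, or 38.4% without replicate 1) and co-treatment against nitrite (46.6% against 36.2%, or 53.4% against 38.1%), and in co-treatment against PBS with the block and without replicate 1 (42.5% against 38.4%).

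A called direction reversed for 0 of the named members under any alternative. Some of these members were picked by their adjusted p in the same data, so a reversal was unlikely from the start. Calls were lost more often. Of the 19 calls followed for these members, all 19 were lost without replicate 2. After median-ratio scaling 14 of the 19 were lost, and 12 of the 19 without replicate 1. Over 26 alternatives the call of mrpl23 in bacteria against PBS was kept in 25, and that of mrpl41 in co-treatment against PBS in 11.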

Other observations

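Nuclear regulators of mitochondrial genes were measured in 9 of 13 listed genes. The genes named here were picked by their small adjusted p, so they do not describe the list, whose other genes are not given. Of all genes tested 26.3% were called lower with bacteria and 10.7% higher. With bacteria against PBS ppargc1a, a coactivator of mitochondrial biogenesis, fell (log2 -1.36 ± 0.23, limma adjusted p = 0.00115), with means of 0.410 FPKM with bacteria and 2.65 with PBS. esrra, a nuclear receptor that works with it in mammals, fell as well (-0.89 ± 0.18, adjusted p = 0.00373), with means of 1.46 FPKM with bacteria and 3.55 with PBS. ddit3, a transcription factor of stress responses, rose (1.11 ± 0.19, adjusted p = 0.00143), with means of 40.6 FPKM with bacteria and 18.4 with PBS. All 3 were also called without the libraries numbered 1 (-1.46, -0.79 and 1.27, adjusted p = 0.0110, 0.0143 and 0.00733), as well as with median-ratio scaling (0.00454, 0.0132 and 0.000267 by limma). The mean of ppargc1a with bacteria, 0.410 FPKM, was under the filter of 1 FPKM. This gene was tested only because other groups were higher, so the filter favoured a fall.

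Of 10 tested genes of mitochondrial import and mass, 0 passed limma's test with bacteria, at a median log2 change of -0.06, which was 0.28 after median-ratio scaling. With the block 1 rose and 3 fell, where 14.8% and 38.6% of all genes did. Among the 3 was the import receptor gene tomm70 (-0.73 ± 0.31 without the block, limma adjusted p = 0.00337 with it). The citrate synthase gene cs, at means of 138 FPKM with bacteria and 101 with PBS, rose (0.46 ± 0.23 without the block, limma adjusted p = 0.0448 with it).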
